A study of Mus musculus with 6 samples.

Results

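The genes studied here mostly encode nuclear subunits of oxidative phosphorylation, the pathway by which mitochondria turn the energy of electrons from food into ATP. They were the RefSeq protein-coding genes on chromosomes 1 to 19, X and Y whose symbols begin with Nduf, Uqcr, Cox4 to Cox8 or Atp5, or are Sdha, Sdhb, Sdhc or Sdhd, and they numbered 96 of 21887. The series mapped chromatin in OG2X129 mouse embryonic fibroblasts during chemical reprogramming, the use of compounds in place of genes to bring differentiated cells to pluripotency. Cells treated with CD, read here as the CD3254 of the series title, a retinoid X receptor agonist, and cells treated with DMSO were profiled for H3K27ac, an acetylated histone found at active regulatory DNA, with 2 samples each. In a further 2 samples the cells overexpressed Rxra with a Flag tag, and the antibody was against the tag. Rxra is a nuclear receptor that pairs with other nuclear receptors. The labels give no time point, no separate cultures for the replicates, and neither CD nor DMSO for the Flag-Rxra cells. Because Rxra was overexpressed with a tag, its peaks describe the tagged protein and not the level the cells make by themselves.

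Electrons enter the respiratory chain at complex I, which oxidises NADH, or at complex II, which oxidises succinate and also works in the tricarboxylic acid cycle. Complex III passes them to cytochrome c and complex IV passes them to oxygen, while ATP synthase uses the resulting proton gradient. Most subunits are encoded in the nucleus and made in every cell, but several complex IV subunits have isoforms made mainly in muscle, testis or lung. Nuclear factors known for the promoters of these genes include NRF1, the ETS factor GABP, YY1 and the estrogen-related receptors.

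CUT&Tag tethers a transposase to an antibody, so that cut fragments mark where the antibody sits, and the deposited values were peak lists. H3K27ac regions numbered 104437 in CD (37.3 Mb) and 75482 in DMSO (31.1 Mb), each condition with 1 list for its 2 samples. Flag-Rxra peaks numbered 28243 in replicate 1 and 45999 in replicate 2, and 17623 replicate 1 peaks overlapped a replicate 2 peak by 1 bp or more (shared peaks). The lists hold no read counts, so depth is unknown, and no control list was used here, so how much of the signal any antibody would give was not tested. As a check of the labelled cell type, 6 of 12 fibroblast markers had an H3K27ac region within 1 kb of a gene end in CD and 5 of 12 in DMSO. Of the pluripotency markers, 1 of 6 had a region in each list, a different gene in CD than in DMSO. For macrophage, endothelial, epithelial, muscle and neural markers the counts were between 0 and 2 of 4 or 5 genes in CD and between 0 and 3 in DMSO. At these counts the lists alone do not separate fibroblasts from other cell types.

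Flag-Rxra peaks lay at most oxidative phosphorylation genes. A shared peak lay within 1 kb of an annotated gene end at 65 of 96 genes (67.7%, exact Clopper-Pearson 95% interval 57.4 to 76.9, covering counting error only), where 32.6% of all protein-coding genes had 1. Replicate 1 alone had a peak at 74 genes (77.1%) and replicate 2 alone at 70 (72.9%), against 41.7% and 42.1% of all protein-coding genes. At 9 genes replicate 1 alone had a peak, at 5 replicate 2 alone, and at 17 neither. Genes with an H3K27ac region at an end in either list carried such peaks more often, so the count was also taken among them. There 59 of 78 genes (75.6%) had a shared peak, against 50.6% of all such protein-coding genes. The count of 65 depends on the overlap asked for, since with 50% of both peaks shared it was 41 (42.7%), against 20.2% of all protein-coding genes. No test was made between gene lists.

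**Figure D1:**
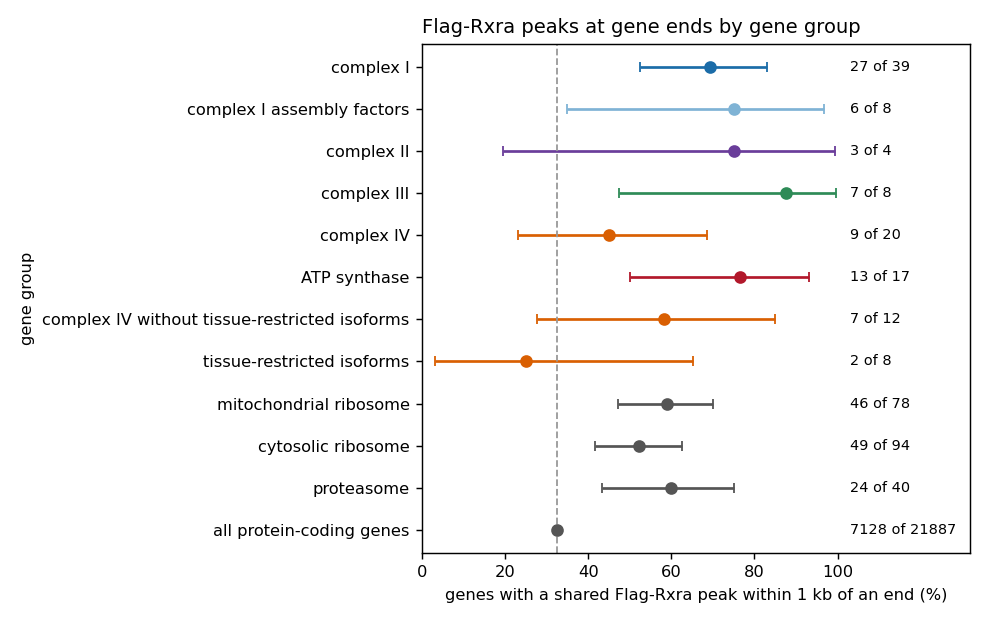
Share of genes with a shared Flag-Rxra peak within 1 kb of a gene end (horizontal axis, %) for each gene group (vertical axis). Points are shares, bars are exact 95% binomial intervals, the dashed line is the 32.6% of all protein-coding genes, and the counts stand at the right. Complex III lies highest, at 7 of 8, and the tissue-restricted isoforms lowest, at 2 of 8.

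The complexes differed in how many of their genes had a shared peak, within wide intervals. The count was 27 of 39 for complex I (69.2%, 52.4 to 83.0), 6 of 8 for its assembly factors (75.0%, 34.9 to 96.8), 3 of 4 for complex II (75.0%, 19.4 to 99.4), 7 of 8 for complex III (87.5%, 47.3 to 99.7), 9 of 20 for complex IV (45%, 23.1 to 68.5) and 13 of 17 for ATP synthase (76.5%, 50.1 to 93.2). Complex IV had the lowest share, and all of these intervals overlap. Ndufa4 and Ndufa4l2 are counted with complex IV, since Ndufa4 is known as a subunit of that complex in spite of its name. The 8 tissue-restricted isoforms lowered the complex IV share, since 7 of its 12 other genes had a shared peak (58.3%, 27.7 to 84.8).

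**Figure D2:**
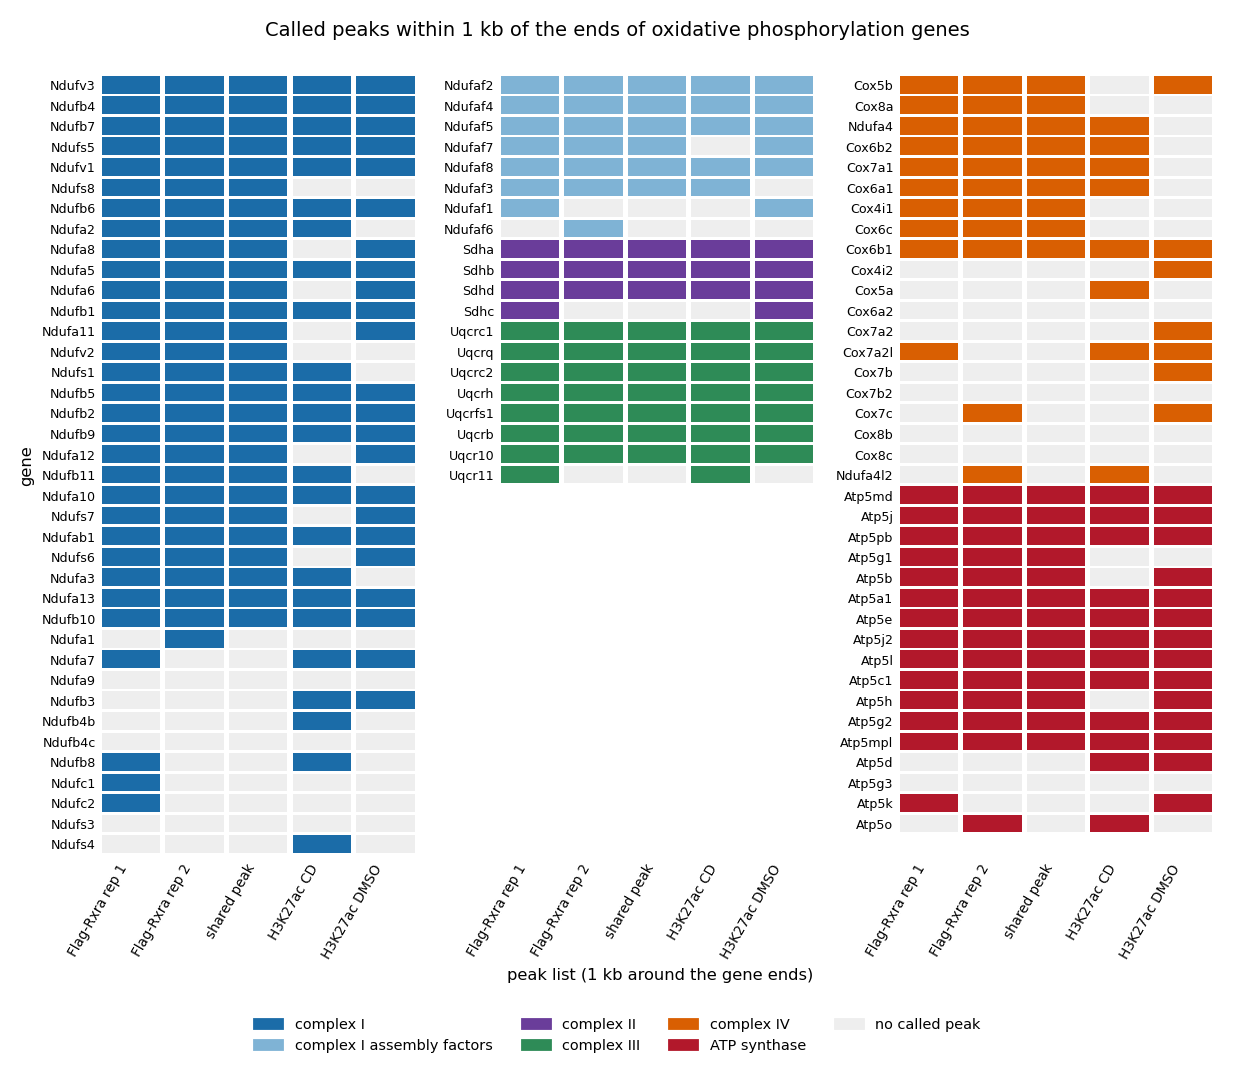
Called peaks within 1 kb of the ends of each gene named (rows, ordered within each complex by fold enrichment). Columns are the Flag-Rxra replicates, the shared peak and the CD and DMSO H3K27ac lists, and a coloured tile is a called peak. Filled tiles fill most rows of complex III and ATP synthase, while 4 of the 20 complex IV rows are empty in every column.

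The strongest shared peak by rank of fold over both replicates lay at Atp5md, a small membrane subunit of ATP synthase. Its fold enrichment over the authors' background was 19.5 in replicate 1 and 31.9 in replicate 2 (chr19:47090616-47090951, mm10), with the summit 138 bp upstream of the RefSeq start and nearer to an end of Pdcd11. Cox5b, a complex IV subunit, followed with folds of 16.4 and 29.6, and Uqcrc1, a core protein of complex III, with 16.6 and 25.9. The others among the 10 best were Cox8a (16.1 and 26.5), Ndufv3 (15.1 and 30.3), Sdha (15.6 and 26.8), Atp5j (13.9 and 27.2), Ndufb4 (12.4 and 37.9), Uqcrq (13.1 and 25.8) and Ndufb7 (14.9 and 21.1). The 10 therefore came from all 5 complexes. The weakest shared peaks lay at Cox6b1 (6.31 and 7.37), Ndufb10 (8.79 and 5.86) and Atp5mpl (10.8 and 8.27). Over the 65 genes the median fold was 12.7 in replicate 1 and 15.5 in replicate 2, against 11.3 and 15.6 over all 7128 protein-coding genes with a shared peak. The peaks at oxidative phosphorylation genes were thus of usual strength, and what differed from the background was how many genes had them. Within the 65 genes the folds of the replicates had a Spearman correlation of 0.307 across genes, against 0.533 over all such genes, given as a description of peaks that share a library.

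**Figure D3:**
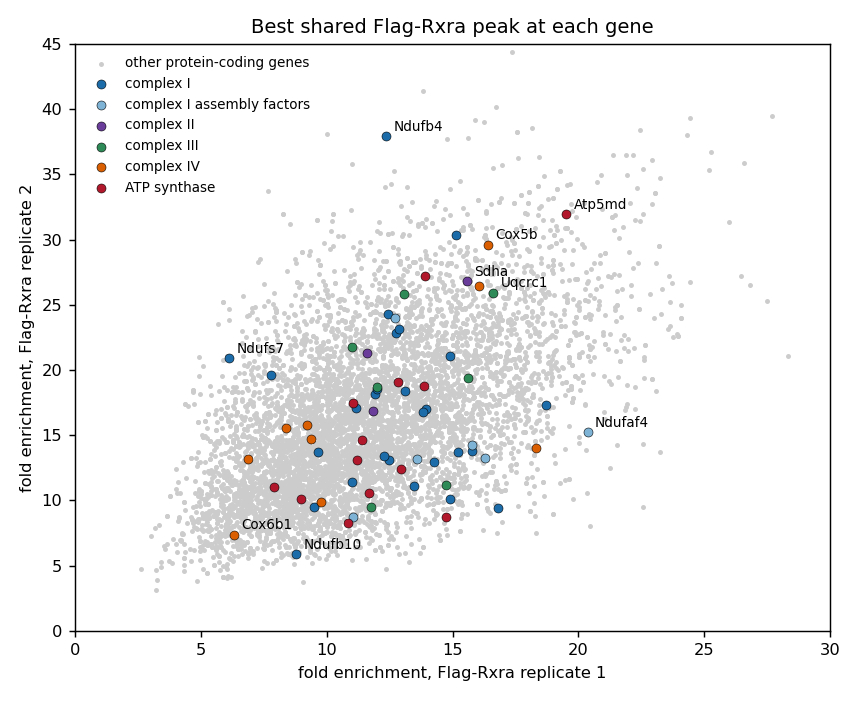
Fold enrichment of the best shared Flag-Rxra peak at each gene in replicate 1 (horizontal axis) and replicate 2 (vertical axis). Coloured points are oxidative phosphorylation genes by complex and grey points the other protein-coding genes, of which 5 lie outside the axes. The coloured points lie within the grey cloud, with Ndufb4 highest in replicate 2 at 37.9 and Ndufaf4 highest in replicate 1 at 20.4.

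In complex I, genes of all 3 structural parts had shared peaks. The N module, which takes electrons from NADH, had 8 of 10, the Q module, which hands them to ubiquinone, 3 of 5, and the membrane arm, which pumps protons, 16 of 24. Ndufv1, the NADH-binding subunit, had folds of 12.4 in replicate 1 and 24.3 in replicate 2 with its summit 5 bp upstream of the start. Ndufs1, the large iron-sulfur subunit of that module, had 15.2 and 13.7. In the Q module, Ndufs7 and Ndufs8, which carry iron-sulfur clusters, had folds of 6.12 and 20.9 and of 12.8 and 22.8. Ndufs7 had the lowest replicate 1 fold of all 65 genes although its replicate 2 fold was above the median. Ndufs3, a core subunit there without such a cluster, had no Flag-Rxra peak in either replicate. Ndufb4, in the membrane arm, had the highest replicate 2 fold of the 65 genes, and its near copies Ndufb4b and Ndufb4c had no peak in either replicate. Reads from such near-identical copies can be hard to place, and the labels do not tell how they were placed.

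Complex I assembly factors had shared peaks at 6 of 8 genes, with replicate 1 folds between 11.0 and 20.4 and replicate 2 folds between 8.72 (Ndufaf3) and 24.0 (Ndufaf2). Ndufaf4 had the highest replicate 1 fold of the 65 genes, at 20.4, with 15.2 in replicate 2. Its partner in assembly, Ndufaf3, had 11.0 and 8.72. Ndufaf7, a methyltransferase of the mitochondria, had 16.3 and 13.2. Ndufaf1 had a peak in replicate 1 alone (fold 8.53) and Ndufaf6 in replicate 2 alone (13.7).

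In complex II, Sdha, the flavoprotein that oxidises succinate, had a summit 2 bp downstream of its start, and folds of 15.6 and 26.8. Sdhb, the iron-sulfur subunit, had 11.6 and 21.3, and the membrane anchor Sdhd 11.8 and 16.8. The other anchor, Sdhc, had a peak in replicate 1 alone, with a fold of 11.0. In complex III, the core proteins Uqcrc1 (16.6 and 25.9) and Uqcrc2 (15.6 and 19.4) and the Rieske iron-sulfur protein Uqcrfs1 (12.0 and 18.7) had shared peaks. Uqcr11 was the complex III gene without a shared peak, with a fold of 11.5 in replicate 1 and none called in replicate 2. Over the 7 complex III genes the lowest and highest folds were 11.0 and 16.6 in replicate 1, and 9.47 and 25.9 in replicate 2.

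Complex IV held some of the strongest peaks and also genes with none. Of the tissue-restricted isoforms, 2 of 8 had a shared peak, Cox6b2, known from testis (9.21 and 15.8), and Cox7a1, known from heart and muscle (9.36 and 14.7). Cox7a1 lies within 1 kb of an end of Capns1 and Cox6b2 of Fam71e2. Cox4i2, Cox6a2, Cox7b2, Cox8b and Cox8c had no Flag-Rxra peak, and Ndufa4l2, known as a hypoxia-induced gene, had a weak peak in replicate 2 alone (4.31). Of their 7 widespread paralogs, 5 had a shared peak: Cox8a (16.1 and 26.5), Ndufa4 (18.3 and 14.1), Cox6a1 (8.38 and 15.5), Cox4i1 (6.87 and 13.2) and Cox6b1 (6.31 and 7.37). Cox7a2 and Cox7b had none at their annotated ends. Cox5a and Cox7a2 did have a shared peak at a RefSeq start that lies 3904 bp and 4612 bp inside the annotated gene. At Cox5a that peak (chr9:57521034-57521787) had 14.7 and 11.7 as folds and a summit 33 bp downstream of the start, and at Cox7a2 (chr9:79759439-79759878) 9.03 and 10.3 with its summit 69 bp downstream. Counted by start in place of gene end, 57 of the 78 genes with a RefSeq start in the promoter table had a shared peak within 1 kb (73.1%), against 34.3% of all protein-coding genes with 1.

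ATP synthase genes had shared peaks in each part of the enzyme. The catalytic F1 head had 4 of 5, among them Atp5a1 (11.4 and 14.7) and Atp5b (11.0 and 17.4), the subunits that form the catalytic sites. Atp5d, the delta subunit, had no peak. Of the 3 genes for the c ring, which turns with the proton flow, Atp5g1 (12.8 and 19.1) and Atp5g2 (7.90 and 11.0) had shared peaks and Atp5g3 had none. The peripheral stalk had 3 of 4, all but Atp5o, the oligomycin sensitivity subunit, where replicate 2 alone had a peak (11.3). The small membrane subunits had 4 of 5, all but Atp5k, where replicate 1 alone had a peak (10.9). No peak of any of the 4 lists lay at the ends of 8 genes: Atp5g3, Ndufa9, Ndufs3, Ndufb4c, Cox6a2, Cox7b2, Cox8b and Cox8c.

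Shared peaks sat close to the starts of these genes. Of the 55 genes with a shared peak at an end and a start in the promoter table, 46 had the replicate 1 summit within 200 bp of a start (83.6%), against 64.4% of all such protein-coding genes. The median distance was 71.0 bp, against 134 bp over all. The summit lay upstream at 32 and downstream at 23. The farthest from a start were Ndufa13, 1227 bp upstream, where the summit is nearer to an end of Tssk6, and Cox6b2, 677 bp downstream.

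**Figure D4:**
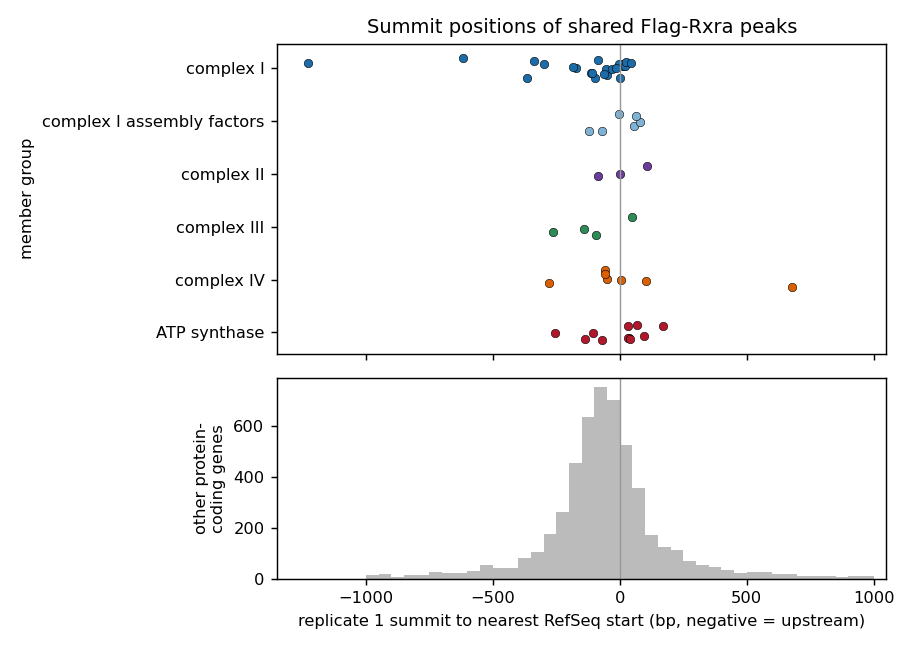
Distance of the replicate 1 summit from the nearest RefSeq start of the gene (horizontal axis, bp, negative upstream) for oxidative phosphorylation genes by complex (upper panel, 1 point a gene) and for the other protein-coding genes within 1 kb (lower panel, number of genes per bin of 50 bp). Most points lie within 200 bp of the start in both panels, and Ndufa13 is the point at the far left, 1227 bp upstream.

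Many of these genes have an end of a neighbour close to an end of their own, so that a peak there cannot be assigned to 1 gene. Another protein-coding gene, in any orientation, had an end within the 1 kb windows at 54 of 96 genes (56.25%), against 24.8% of all protein-coding genes. By RefSeq starts, 24 of 78 genes (30.8%) had a start on the opposite strand within 1 kb, against 9.61% of all. Of these 24, 20 had a shared peak (83.3%), against 70.6% of all protein-coding genes so placed, and the partner had a shared peak wherever the oxidative phosphorylation gene had 1, as nearly the same window is read for both. The partners included Gabpa, which encodes the DNA-binding subunit of GABP and starts 148 bp from Atp5j, Timm8b, a mitochondrial import chaperone that starts 52 bp from Sdhd, and Mrpl47, a mitochondrial ribosome protein that starts 308 bp from Ndufb5. Ndufa7 and Rps28, 10 bp apart, Ndufs3 and Kbtbd4, 19 bp apart, Ndufa1 and Rnf113a1, 16 bp apart, and Ndufb3 and Fam126b, 64 bp apart, were the pairs without a shared peak. At 15 of the 65 genes the summit was nearer to an end of the neighbour than to their own. Among genes with no other gene end in their windows, 21 of 42 had a shared peak (50%), against 25.6% of all such protein-coding genes. Among those with another end, 44 of 54 had 1 (81.5%), against 53.7%.

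The promoters under these peaks show which known promoter motifs the genes carry, and 7 are printed: 5 with peaks among the 10 best, Sdhb, which carries 2 of the motifs, and Cox8b, a paralog of Cox8a without a peak. They are RefSeq sequences of GRCm38.p6, the assembly of mm10, from 250 bases before to 50 after the start, 5′ to 3′ on the strand of the gene. Capitals mark matches on either strand to NRF1 (GCATGCGC), ETS (CCGGAAGT), YY1 (AAGATGGC), the core that nuclear receptors bind (AGGTCA), its estrogen-related receptor form (TCAAGGTCA, which contains the core) or AP-1 (TGANTCA).
Ndufb4, chr16:37654319-37654618, minus strand: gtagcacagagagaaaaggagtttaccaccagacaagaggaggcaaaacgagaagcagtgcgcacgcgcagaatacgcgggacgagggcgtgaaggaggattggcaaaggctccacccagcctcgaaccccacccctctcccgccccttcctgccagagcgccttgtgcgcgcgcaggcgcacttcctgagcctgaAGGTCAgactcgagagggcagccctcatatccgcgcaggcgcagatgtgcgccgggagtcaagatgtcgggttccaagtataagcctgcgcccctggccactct
Sdhb, chr4:140961021-140961320, plus strand: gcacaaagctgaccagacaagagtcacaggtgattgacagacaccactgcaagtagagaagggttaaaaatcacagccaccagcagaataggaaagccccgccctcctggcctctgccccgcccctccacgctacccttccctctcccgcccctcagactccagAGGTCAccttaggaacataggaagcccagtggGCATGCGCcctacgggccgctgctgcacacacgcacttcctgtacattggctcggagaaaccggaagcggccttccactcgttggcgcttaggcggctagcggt
Uqcrc1, chr9:108936398-108936697, plus strand: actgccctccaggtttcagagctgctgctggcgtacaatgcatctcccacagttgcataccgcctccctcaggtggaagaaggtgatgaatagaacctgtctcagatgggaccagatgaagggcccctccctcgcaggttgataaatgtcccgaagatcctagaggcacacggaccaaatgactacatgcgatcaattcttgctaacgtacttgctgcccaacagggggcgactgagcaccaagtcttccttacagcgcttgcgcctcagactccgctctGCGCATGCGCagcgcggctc
Cox5b, chr1:36691237-36691536, plus strand: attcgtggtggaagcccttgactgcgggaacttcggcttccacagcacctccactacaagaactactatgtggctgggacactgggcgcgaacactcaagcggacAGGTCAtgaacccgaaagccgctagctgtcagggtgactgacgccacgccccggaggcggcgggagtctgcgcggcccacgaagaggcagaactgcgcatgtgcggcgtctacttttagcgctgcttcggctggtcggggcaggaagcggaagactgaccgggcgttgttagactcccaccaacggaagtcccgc
Cox8a, chr19:7217567-7217866, minus strand: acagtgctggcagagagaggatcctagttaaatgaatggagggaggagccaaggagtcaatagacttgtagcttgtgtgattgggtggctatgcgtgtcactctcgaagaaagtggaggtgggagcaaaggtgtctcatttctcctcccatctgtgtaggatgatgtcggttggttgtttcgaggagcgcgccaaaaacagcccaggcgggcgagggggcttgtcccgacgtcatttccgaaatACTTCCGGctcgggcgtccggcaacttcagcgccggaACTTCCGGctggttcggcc
Cox8b, chr7:140900397-140900696, minus strand: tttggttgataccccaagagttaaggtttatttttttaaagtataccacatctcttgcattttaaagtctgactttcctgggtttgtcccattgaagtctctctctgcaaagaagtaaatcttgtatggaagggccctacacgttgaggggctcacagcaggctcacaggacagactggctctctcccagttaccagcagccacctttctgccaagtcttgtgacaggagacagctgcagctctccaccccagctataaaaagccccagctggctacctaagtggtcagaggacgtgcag
Atp5j, chr16:84834927-84835226, minus strand: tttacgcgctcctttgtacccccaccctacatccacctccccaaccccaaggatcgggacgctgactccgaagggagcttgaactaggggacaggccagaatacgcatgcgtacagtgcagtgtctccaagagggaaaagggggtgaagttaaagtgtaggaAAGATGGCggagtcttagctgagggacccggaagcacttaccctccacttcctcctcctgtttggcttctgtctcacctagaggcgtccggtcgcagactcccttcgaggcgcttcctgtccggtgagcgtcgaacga
Uqcrc1 carried an NRF1 match on both strands 31 bp after the start, and its Flag-Rxra summits lay 48 bp after the start in replicate 1 and 50 bp in replicate 2. Sdhb carried an NRF1 match 54 bp and an AGGTCA match 86 bp before its start. Cox5b and Ndufb4, among the 10 best peaks, carried AGGTCA matches beginning 145 and 54 bp before the start, and at Ndufb4 the summits lay 49 bp before it in replicate 1 and 38 bp in replicate 2. At Atp5j the YY1 match, 88 bp before the start, lies between the starts of Atp5j and Gabpa. Cox8a carried ETS matches 6 bp before and 32 bp after its start, and its muscle paralog Cox8b, without a peak, carried no match to any of these motifs. The summits of the other printed genes with a peak follow, replicate 1 first. At Cox5b they lay 5 bp after the start and 59 bp before it, and at Sdhb 109 bp after and 31 bp before. At Atp5j they lay 69 and 31 bp after the start, and at Cox8a 52 and 95 bp before it. The printed promoters do not stand for the others. Atp5md, with the best peak, carried no match, and neither did Atp5b, which also had a shared peak. Atp5g3, Atp5k and Ndufa9 carried matches without a shared peak at their ends. A match is a string of letters and does not show that the factor sits there.

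Over all 83 promoter windows of 78 genes, NRF1 matches stood in 12 (14.5%) and YY1 matches in 11 (13.3%), against 2.71% and 2.75% of the 32851 windows of the table. The windows of the table are not limited to protein-coding genes. AGGTCA stood in 18 (21.7%, against 16.3%), AP-1 in 7 (8.43%, against 7.81%), ETS in 5 (6.02%, against 3.89%) and the estrogen-related receptor form in 2 (2.41%, against 0.423%), at Atp5g3 and Sdhd. AGGTCA stood in 14 of the 58 windows of genes with a shared peak (24.1%) and in 4 of the 25 of genes without (16.0%). Over all protein-coding genes the order was the other way, with AGGTCA in 11.9% of windows of genes with a shared peak and 16.1% of those without. NRF1 stood in 10 of 58 windows (17.2%) and 2 of 25 (8%), against 6.02% and 2.23% over all protein-coding genes, and YY1 in 7 of 58 (12.1%) and 4 of 25 (16.0%), against 4.89% and 2.11%. ETS stood in 3 of 58 (5.17%) and 2 of 25 (8%), against 8.86% and 3.23%. Among genes with a shared peak, ETS was thus less frequent here than over all protein-coding genes. The YY1 matches fell in complex I (7), its assembly factors (1) and ATP synthase (3), and in none of the windows of complexes II, III and IV. The windows held a median of 20 CpG dinucleotides, against 7 over the table and 22 over protein-coding genes with a shared peak, and what part base composition has in the motif shares was not tested.

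H3K27ac regions lay at as many oxidative phosphorylation genes in CD as in DMSO. A region lay within 1 kb of a gene end at 61 of 96 genes in the CD list (63.5%, 53.1 to 73.1), where 38.3% of all protein-coding genes had 1, and at 61 of 96 in the DMSO list (63.5%), where 35.8% had 1. The genes were partly different, since 44 had a region in both lists, 17 in CD alone, 17 in DMSO alone and 18 in neither. The share with a region in both lists was 45.8%, against 21.2% of all protein-coding genes, while 17.7% had 1 in CD alone and 17.7% in DMSO alone, against 17.1% and 14.7% of all. These regions were weak calls, as were most at other genes. Their best −log10 q lay between 1.18 and 5.24 in CD and between 1.13 and 4.21 in DMSO, with medians of 1.62 and 1.73, against medians of 1.49 and 1.62 over all protein-coding genes with a region. A value of 2 or more was found at 9 genes in CD (9.38%, against 6.65% of all protein-coding genes) and 13 in DMSO (13.5%, against 8.84%). The strongest were at Ndufb1 (5.24 in CD and 2.78 in DMSO) and at Cox7a2l, a factor of respiratory supercomplexes, for which CD had 1.53 and DMSO 4.21.

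By complex, the region counts were 25 in CD and 23 in DMSO of 39 for complex I, 3 and 4 of 4 for complex II, 8 and 7 of 8 for complex III, 8 and 7 of 20 for complex IV, and 12 and 14 of 17 for ATP synthase. Assembly factors had 5 in CD and 6 in DMSO of 8. Both lists had a region at 7 of 8 complex III genes and at 2 of 20 complex IV genes, Cox6b1 and Cox7a2l. Of the tissue-restricted isoforms, 3 had a region in CD (Cox6b2, Cox7a1 and Ndufa4l2) and 1 in DMSO (Cox4i2). Under the shared Flag-Rxra peaks themselves, 41 of 65 overlapped a CD region (63.1%, against 37.6% of all protein-coding genes with a shared peak) and 39 a DMSO region (60%, against 46.0%). At 14 of the 65 (21.5%, against 40.1% of all protein-coding genes with a shared peak) neither list had a region under the peak, among them Cox8a, Ndufs8, Ndufv2 and Atp5g1. No shared peak here lay in a region of −log10 q of 50 or more in both lists.

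The H3K27ac lists serve to find enhancers in CD and DMSO cells, per the series' design text, and around these genes the covered bases differed in both directions. Within 2.5 kb of the ends, 46 genes had more bases covered by H3K27ac regions in CD, where 35.8% of all protein-coding genes did, and 38 had more in DMSO, where 32.1% did, with 12 equal. The median was 434.5 bases in CD and 364.5 in DMSO, and the median difference per gene was 0, as over all genes. Each condition had 1 list, so these differences have no replicate error and no test. The largest excess in CD was at Ndufb11, a membrane arm subunit, with 1505 bases in CD and 0 in DMSO. Ndufa3 had 1300 in CD and 0 in DMSO, Sdhb 1545 and 293, Atp5c1, the gamma subunit, 1235 and 205, and Ndufs3 1023 and 0. The largest excess in DMSO was at Ndufv2, with 0 bases in CD and 1318 in DMSO. Cox5b had 0 in CD and 1216 in DMSO, Ndufa6 0 and 1132, Atp5j 386 and 1448, and Atp5b 0 and 976. When only regions with a −log10 q from 2 upwards were counted, the difference was 0 at all 10 genes, so these differences rest on calls below that limit. Such calls make up most of each list, since 14364 of 104437 CD regions and 13792 of 75482 DMSO regions reach the limit.

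**Figure D5:**
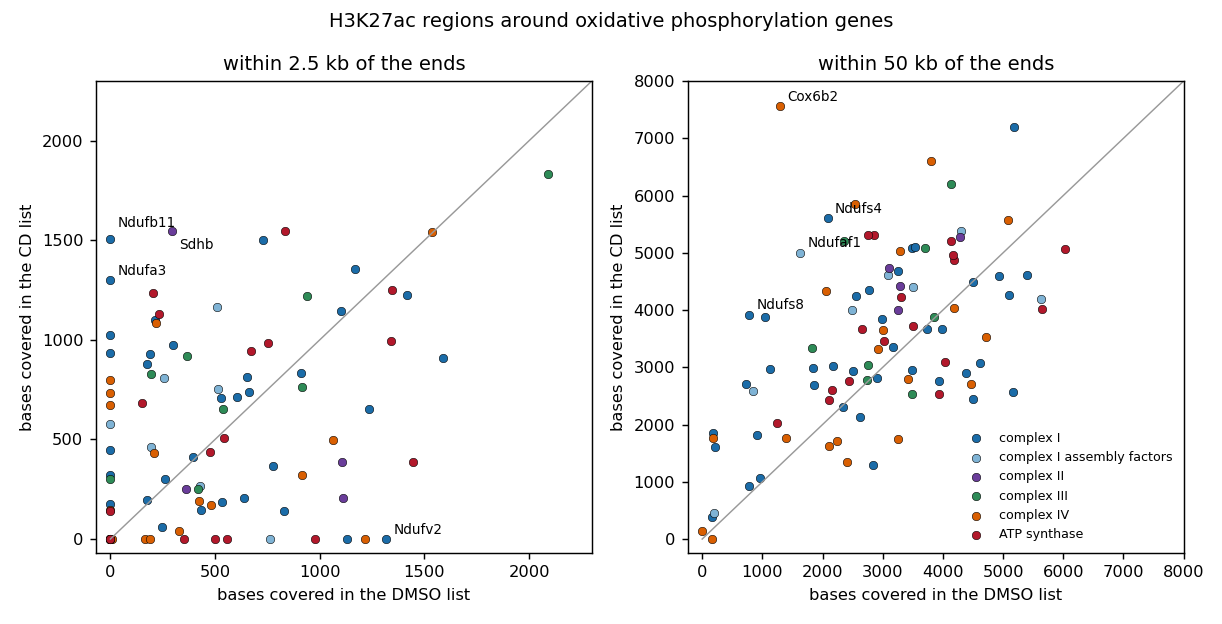
Bases covered by H3K27ac regions in the CD list (vertical axis) and the DMSO list (horizontal axis) within 2.5 kb (left) and 50 kb (right) of the ends of each gene, coloured by complex. The grey line marks equal values. At left the points spread to both sides, with 46 genes above the line and 38 below, and at right 65 lie above and 30 below, where 59% and 31.5% of all protein-coding genes do.

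From 2.5 to 50 kb from the ends, 67 of 96 genes had more covered bases in CD (69.8%), where 59.4% of all protein-coding genes did, and 27 had more in DMSO (28.1%), where 30.7% did. The CD list covers more of the genome, and the median difference of 455.5 bases compares with 262 over all protein-coding genes. Where only regions with a −log10 q from 2 upwards counted, 37 genes had more in CD and 45 more in DMSO, against 34.2% and 36.9% of all protein-coding genes. The direction of the split thus depends on calls below that limit. By complex, more bases in CD and more in DMSO were found at 26 and 13 genes of complex I, 6 and 1 of its assembly factors, 3 and 1 of complex II, 6 and 2 of complex III, 14 and 5 of complex IV and 12 and 5 of ATP synthase. Within 50 kb in all, Cox6b2 had the largest excess in CD, with 7557 bases in CD and 1294 in DMSO. Ndufs4 had 5599 in CD and 2086 in DMSO, Ndufaf1 5003 and 1627, Cox5a 5857 and 2537, and Ndufs8 3919 and 777. In the other direction, Ndufb1 had 2454 bases in CD and 4505 in DMSO, Cox7a1 2711 and 4463, Atp5b 4022 and 5653, and Ndufv2 1293 and 2831. Atp5b and Ndufv2 thus had fewer covered bases in CD within 2.5 kb and within 50 kb, but the larger window contains the smaller. From 2.5 to 50 kb alone, Atp5b had 4022 in CD and 4677 in DMSO, and Ndufv2 1293 and 1513. Under the same limit, Cox5a and Ndufs4 had more covered bases in DMSO, by 149 and 173, and Cox6b2 was equal.

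The succinate dehydrogenase genes and the complex IV paralogs are described within 50 kb, where CD had the excess at 59% of all protein-coding genes and DMSO at 31.5%. In that window all 4 Sdh genes had more covered bases in CD: Sdha 4413 in CD and 3282 in DMSO, Sdhb 3993 and 3253, Sdhc 5280 and 4286, and Sdhd 4739 and 3099. Within 2.5 kb, 1 of the 4, Sdhb, had more in CD. Of the tissue-restricted isoforms, 6 of 8 had more within 50 kb in CD, and of the widespread paralogs 3 of 7. Cox4i1 had 4027 bases in CD and 4177 in DMSO, and its hypoxia-linked paralog Cox4i2 had 5581 and 5079. These counts include calls with a −log10 q below 2, on which the direction of the split from 2.5 to 50 kb depends. Without such calls Cox6b2 was equal within 50 kb and Cox7a1 still had more in DMSO. The Sdh genes and the other isoforms and paralogs were not tested without them.

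Farther from the genes, a shared Flag-Rxra summit lay 2.5 to 50 kb from the ends at 74 of 96 genes (77.1%), where 60.8% of all protein-coding genes had 1. The most lay around Atp5h (8) and around Atp5d, Sdhc and Cox8b (7 each), and the median was 1.5 summits a gene, against 1 over all. Cox8b had 7 such summits although none of the lists had a peak at its ends. Such summits can belong to other genes, and their part at these genes was not tested.

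Of the other mitochondrial gene lists, some had shared peaks at higher shares than the 67.7% of the oxidative phosphorylation genes and some at lower. Assembly factors outside the symbol rule had them at 28 of 36 genes (77.8%, 60.8 to 89.9) and the tricarboxylic acid cycle at 11 of 14 (78.6%, 49.2 to 95.3). Electron carrier genes (cytochrome c and ubiquinone synthesis) had them at 7 of 12 (58.3%) and regulators of mitochondrial genes at 6 of 15 (40%). For genes named as mitochondrial ribosome proteins the count was 46 of 78 (59.0%, 47.3 to 70.0), for cytosolic ribosomal proteins 49 of 94 (52.1%, 41.6 to 62.5) and for proteasome subunits 24 of 40 (60%, 43.3 to 75.1). These intervals overlap that of the oxidative phosphorylation genes (57.4 to 76.9), and no difference between the lists was tested. From 2.5 to 50 kb, 5 of 14 tricarboxylic acid cycle genes (35.7%) had more covered bases in CD and 9 in DMSO (64.3%). For assembly factors outside the rule the counts were 21 (58.3%) and 15 (41.7%) of 36. For electron carriers they were 8 (66.7%) and 4 (33.3%) of 12. The background shares were 59.4% for CD and 30.7% for DMSO. These counts include calls with a −log10 q below 2, on which the direction of the oxidative phosphorylation split depends. Whether they hold without such calls was not tested.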

How the data were processed

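CUT&Tag peak lists of 6 samples in 3 groups were used: CD H3K27ac, DMSO H3K27ac and Flag-Rxra, with 2 samples each. Tools listed in the submitters' processing notes, without their roles, are MACS2 2.1.2, Bowtie2 2.2.5, fastp 0.20.1 and deepTools 3.4.3, and the build is mm10. Per the labels, both samples of an H3K27ac condition name 1 list, and the step that joined them is not stated there. The fold enrichment of a peak is the authors' deposited ratio over the background their caller estimated. The −log10 q of a peak is also the authors' deposited value, 1.00 or more in the H3K27ac lists and 5.00 or more in the Flag-Rxra lists. Both kinds of value were used only within their list.

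Gene ends came from RefSeq (GRCm38.p6, the assembly of mm10). Flag-Rxra peaks of replicate 1 that overlapped a replicate 2 peak by 1 bp or more counted as shared, and the best peak of a gene had the best sum of fold ranks over both lists. H3K27ac covered bases were summed within 2.5 kb and 50 kb of the ends. Peak overlaps and covered bases were checked on brute-force cases. The 95% intervals are exact Clopper-Pearson intervals and cover counting error only. Python 3.11.15, numpy 2.4.6, pandas 2.3.3, scipy 1.17.1 and matplotlib 3.10.9 were used.

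Genes were named by rule: the 10 best and 3 worst shared peaks, the 5 largest and 5 smallest differences in covered bases in each window, all Sdh genes, the tissue-restricted isoforms and their paralogs, and genes with no peak in any list. Other genes were chosen for their role or position after their values were seen. The genes and the lists were chosen with earlier results of these data known. The values of 1 gene enter the counts and are not reported here by name. Whether replicates are separate cultures is not stated. Motif matches were searched on both strands of 300 bases of the RefSeq promoters.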

Additional observations from a re-analysis of the deposited data

How the results depend on the processing

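No paired analysis was possible because each H3K27ac condition has 1 list for both samples and no result comes from a test. Of the results for whole gene groups, 89 values under other settings counted as unchanged and 20 as moved. Shares of complexes and the distal share counted as unchanged inside the 95% interval of the reported share, which is wide for small complexes. Other values were judged by their ratio to the reported one. The 89 include settings without H3K27ac regions of −log10 q of 50 or more, or peaks in them, which altered none of these values. Where values moved, the cause was not tested unless the setting itself leaves out peaks or genes. With 50% of both peaks shared, 41 of the 96 genes and 38.5% of complex I had a shared peak, against 20.2% of all protein-coding genes. Complex II then had 50%, complex III 50% and complex IV 25%, against reported shares of 75.0, 87.5 and 45%, and all 3 counted as unchanged. When Flag-Rxra peaks had to reach a −log10 q of 20, complex I had 51.3%, against 24.2% of all protein-coding genes. Under that setting 60.4% of the genes had a distal summit, against 50.6% of all protein-coding genes. Without genes that share a window with another gene end, 21 of 42 genes had a shared peak, against 25.6% of all such protein-coding genes. Among them were 1 of 3 assembly factors (33.3%) and 1 of 1 complex II gene (100%). Around the start only, complex II had 3 of 3 (100%), and complex IV, counted as unchanged, had 9 of 14 (64.3%), against 34.3% of all protein-coding genes. Leaving out either Flag-Rxra replicate gave 70 to 74 genes, 75.0 to 100% of complex II and 87.5 to 100% of complex III. The share of all protein-coding genes was then 41.7 to 42.1%. A distal summit was then found at 82.3 to 89.6% of the genes, against 70.6 to 78.7% of all protein-coding genes. With H3K27ac regions of −log10 q of 2 or more, 9 genes in CD and 13 in DMSO had a region at an end, against 6.65% and 8.84% of all protein-coding genes. Within 2.5 kb, 10 then had more covered bases in CD and 16 more in DMSO, against 9.69% and 11.8% of all protein-coding genes. From 2.5 to 50 kb the counts were 37 and 45, against 34.2% and 36.9%, with a median difference of 0, as over all genes. Under that limit more genes had an excess in DMSO than in CD in both windows. This is the other way round from the reported splits of 46 in CD and 38 in DMSO, and 67 and 27. The shares of all protein-coding genes turned the same way in both windows, so the turn is not particular to these genes. The far median was 166.5 bases with the covered length of the lists matched, against 0 over all protein-coding genes. With bases weighted by fold it was 1818, against 949, in another unit than the reported median. The lists hold no read counts, so depth limits each absent peak to an unknown degree.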

Other observations

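Some further subunits of complexes I, III and IV and of ATP synthase are encoded in the mitochondrial genome, which carries no histones. The symbol rule was not checked for nuclear subunits under other names. Intervals on it numbered 6 in the CD list, 3 in the DMSO list, 8 in Flag-Rxra replicate 1 and 13 in replicate 2. They were left out of every count.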
